A study of Mus musculus with 55 samples.

Results

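The genes described here are 37 listed for the enzymes and carriers of mitochondrial fatty acid oxidation and of the tricarboxylic acid (TCA) cycle. They were listed by symbol with no measured value in the rule, and each symbol matched a gene in the count tables of both days, which hold 56941 genes at day 7 and 57186 at day 28. Fatty acid oxidation accounts for 20 of them, and pyruvate dehydrogenase and the TCA cycle for the other 17. Mdh1, the cytosolic malate dehydrogenase, is counted among the 17 although it is not a mitochondrial enzyme. All 37 passed the filter on low counts at both days.

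RNA was sequenced from the infarcted part of the left ventricle in C57BL/6J mice. All 6 groups carry a myocardial infarction made by permanent coronary ligation, so none is an uninjured heart. Day 7 has 8 libraries labelled non-diabetic (Ctrl in the library names), 8 labelled type 1 diabetic (hi STZ) and 8 labelled type 2 diabetic (lo STZ HFFD). Day 28 has 11, 10 and 10 libraries of the same kinds. Day 28 rests on the sample titles and characteristics, since the design text speaks of day 7. The labels give no age or sex, no dose, no diet composition and no statement that each library is a separate animal. P-values here therefore measure the spread between libraries, which may in part be technical.

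Long-chain fatty acids are activated to acyl-CoA, carried into the mitochondrion as acyl-carnitine and shortened in repeated rounds of dehydrogenation, hydration, a further dehydrogenation and thiolysis. The acetyl-CoA released joins that made from pyruvate by the pyruvate dehydrogenase complex and is oxidised in the TCA cycle, and the electrons pass to the respiratory chain. The adult heart draws most of its energy from fatty acids in this way, and cardiomyocytes are densely packed with mitochondria.

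Promoter sequences are shown for 4 members whose day 28 values are described further on, 3 of the fatty acid genes and the TCA gene Sucla2, so that the letters of known regulator motifs can be seen in place. They are RefSeq sequences on build GRCm38.p6, 5′ to 3′ on the strand of the gene, and capitals mark a motif match. For Slc25a20 (chr9:108661997-108662123, plus strand) the capitals are the ETS-type motif CCGGAAG. For Etfdh (chr3:79628826-79628955, minus strand) they are the palindromic motif of NRF1, nuclear respiratory factor 1. For Sucla2 (chr14:73552567-73552692, plus strand) they are AGGTCA, the hexamer bound by nuclear receptors. Ech1 (chr7:28825218-28825337, plus strand) has no match to any motif searched, so it carries no capitals.
Slc25a20: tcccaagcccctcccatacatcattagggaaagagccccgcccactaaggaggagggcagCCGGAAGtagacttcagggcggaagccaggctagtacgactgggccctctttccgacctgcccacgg
Etfdh: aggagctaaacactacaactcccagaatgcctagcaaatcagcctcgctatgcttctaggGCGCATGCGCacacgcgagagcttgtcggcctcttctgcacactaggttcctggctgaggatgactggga
Ech1: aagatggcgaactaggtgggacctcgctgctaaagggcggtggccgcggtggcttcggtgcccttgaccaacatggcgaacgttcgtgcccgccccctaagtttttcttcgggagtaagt
Sucla2: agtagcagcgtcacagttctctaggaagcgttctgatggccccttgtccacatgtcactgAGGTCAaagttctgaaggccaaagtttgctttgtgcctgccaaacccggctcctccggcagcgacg

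The RefSeq table holds 300-base promoters, from 250 bases before to 50 bases after the start, for 33 of the 37 members; Acaa2, Cpt1b, Decr1 and Idh3a were not matched. Searched on both strands, CCGGAAG was found in 6 of the 33, namely Cpt2, Dlst, Idh3b, Idh3g, Mlycd and Slc25a20, against 8.86% of 32851 mouse promoters. AGGTCA was found in 5, namely Acadm, Acadvl, Fh1, Idh3g and Sucla2, against 16.3%. The NRF1 palindrome was found in Etfdh, against 0.971%. The longer TCAAGGTCA (an estrogen-related receptor motif) and the direct repeat of AGGTCA bound by PPAR receptors, which both contain AGGTCA, were in none of the 33, against 0.423% and 0.0396% of promoters. These are matches of letters and say nothing of binding.

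Library totals ran from 10.8 to 51.2 M counts (M for the mega prefix) at day 7 and from 48.1 to 92.9 M at day 28. The members together took 0.331% to 0.787% of the counts at day 7 and 0.682% to 1.97% at day 28, and the lowest count of any member in any library was 21. The 20 cardiomyocyte structural markers were present in every library, with mean log2 CPM (counts scaled to the library total) of 6.32 to 10.03 at day 7 and 8.72 to 11.14 at day 28. Type 1 diabetic replicate 4 at day 7 and type 2 diabetic replicate 4 at day 28 gave those lowest values. The day 7 and day 28 libraries carry different project numbers, so day and sequencing project cannot be told apart, and levels are compared only within a day. In bulk tissue, fewer cells of a type and less RNA per cell cannot be told apart. Skeletal muscle markers averaged 5 or more on the log2 CPM scale in 3 non-diabetic, 4 type 1 and 1 type 2 library at day 28.

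Levels of different genes were compared per length, as RPKM (counts scaled to exon length and library total), in the 11 non-diabetic libraries of day 28. The highest medians were those of the cytosolic malate dehydrogenase Mdh1 at 507, the NADP-dependent isocitrate dehydrogenase Idh2 at 399, the 2-oxoglutarate dehydrogenase subunit Ogdh at 379 and the long-chain acyl-CoA dehydrogenase Acadl at 361. The ranges of all 4 over libraries overlapped. The lowest were the peroxisomal and mitochondrial enoyl-CoA isomerase Eci2 at 12.4, malonyl-CoA decarboxylase Mlycd at 20.3, the electron transfer flavoprotein subunit Etfb at 20.9, the carnitine-acylcarnitine carrier Slc25a20 at 21 and the muscle carnitine palmitoyltransferase Cpt1b at 1.49. Cpt1b shares 81.4% of its exon bases with the same-strand gene Gm44502 and Etfb shares 58.2% with other genes, so their counts are uncertain. Acadvl shares 42.9%, mostly with Dvl2 on the opposite strand. Whether the counting used strand is not given in the sources used here.

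Library by library, the members followed the cardiomyocyte markers. In a fit with the 3 groups of a day and the mean log2 CPM of the 20 markers, all 37 members had a positive slope that passed the test at day 28 (edgeR, adjusted p at or under 0.05), where 24.2% of all genes did. Slopes ran from 0.49 for Eci2 to 1.14 for Idh2 on the log2 scale per log2 unit of the markers, with a median of 0.94. At day 7, 35 of 37 did, against 13.3% of all genes, with a median of 0.40 and a highest slope of 0.72 for Cpt1b; Eci2 and Etfb did not pass. Without the library lowest in cardiomyocyte markers on each day the counts were 36 and 37, and the medians 0.47 and 1.10. The plot of the member mean against the cardiomyocyte mean shows this for every library.

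**Figure D1:**
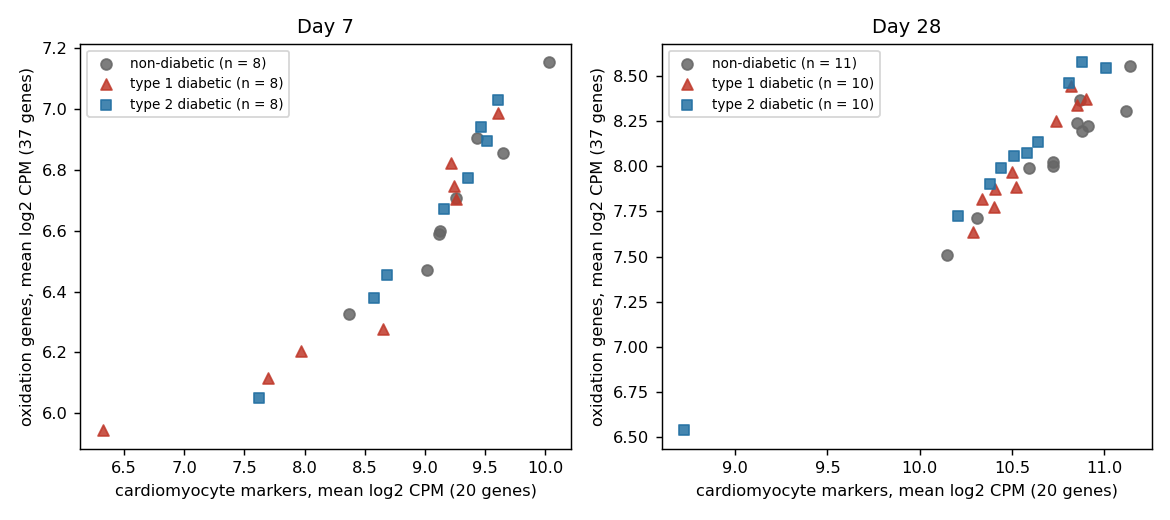
Mean log2 CPM of the 37 members (vertical axis) against mean log2 CPM of the 20 cardiomyocyte structural markers (horizontal axis), a point per library, coloured by group, for day 7 and day 28. The members rise with the markers, and the type 2 diabetic replicate 4 library of day 28 lies lowest, at 6.54 and 8.72.

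At day 7, type 1 diabetic against non-diabetic infarcts differed in 1 of the 37 members. The short-chain acyl-CoA dehydrogenase Acads fell, where 11.4% of the 18165 genes tested fell and 22.5% changed in either direction. Acads ran from 51.3 to 88.1 CPM with a median of 62.6 in non-diabetic libraries, and from 41.1 to 63.3 with a median of 47.7 in type 1 libraries. The groups overlapped, with 7 of 8 type 1 libraries below the non-diabetic mean. Its log2 change was -0.35 (SE 0.118, edgeR adjusted p = 0.0318). The median change over the 37 was -0.19 against -0.01 over all genes, 31 of 37 were below 0, and 8 had an unadjusted p under 0.05.

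The Acads call was lost when any of 8 libraries was left out (non-diabetic replicates 2, 3, 4 and 6, and type 1 replicates 1, 4, 6 and 7). It was also lost with libraries summed by the first number of their name (adjusted p = 0.0895), with the type 2 group left out of the fit (adjusted p = 0.054) and with the cardiomyocyte markers as a covariate (adjusted p = 0.153). Over all alternatives the adjusted p of Acads ran from 0.0154 to 0.160. The count of members called rose to 7 without type 1 replicate 2 (Acads, Cpt1b, Idh2, Idh3b, Idh3g, Mlycd and Ogdh). It was 4 without non-diabetic replicate 5, 3 without type 1 replicate 3, and 2 without non-diabetic replicate 1 or 7 or type 1 replicate 5. DESeq2 called Acads and Ogdh, with 25.7% of genes called, and limma-voom with quality weights called Acads, Cpt1b, Idh3g and Ogdh, with 32.5% of genes called. All were lower.

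Among the genes of fatty acid entry, Mlycd, which removes the malonyl-CoA that inhibits carnitine palmitoyltransferase, ran from 19.9 to 30.6 CPM in non-diabetic and 14.3 to 23.5 in type 1 libraries, with medians of 23.4 and 19.4. Every one of the 8 type 1 libraries lay below the non-diabetic mean, yet the groups overlapped and the change of -0.30 (SE 0.115, adjusted p = 0.0606) did not pass. Cpt1b, which commits long-chain acyl groups to the mitochondrion, had medians of 1.84 and 0.859 CPM (change -0.61, SE 0.341, adjusted p = 0.201). Acsl1, the long-chain acyl-CoA synthetase of heart, had medians of 129 and 116 CPM (-0.32, SE 0.244, adjusted p = 0.373). Slc25a20 and Cpt2, the inner-membrane carnitine palmitoyltransferase, had changes of 0.08 and -0.14.

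Of the β-oxidation spiral, the medium-chain dehydrogenase Acadm differed by -0.29 (SE 0.202, adjusted p = 0.316), from a median of 176 to 155 CPM. The very-long-chain dehydrogenase Acadvl, with medians of 84.0 and 75.3 CPM, differed by -0.17 (SE 0.196, adjusted p = 0.565). The trifunctional protein subunit Hadha, with medians of 287 and 260 CPM, differed by -0.12 (SE 0.166, adjusted p = 0.645). Etfdh, which hands the electrons from electron transfer flavoprotein to ubiquinone, had medians of 116 and 103 CPM (-0.08, SE 0.177, adjusted p = 0.768). In each of these genes the groups overlapped.

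In the TCA cycle 16 of 17 members, counting pyruvate dehydrogenase, were below 0 and none passed. Ogdh ran from 437 to 1210 CPM with a median of 751 in non-diabetic libraries and from 209 to 814 with a median of 525 in type 1 libraries. Its change was -0.61 (SE 0.239, adjusted p = 0.0655), with 7 of 8 type 1 libraries below the non-diabetic mean and the groups overlapping. Idh2 had medians of 216 and 151 CPM (-0.55, SE 0.230, adjusted p = 0.0888). The pyruvate dehydrogenase subunit Pdha1 differed by -0.14 (SE 0.159, adjusted p = 0.553), citrate synthase Cs by -0.19 (SE 0.167, adjusted p = 0.445) and the NAD-dependent isocitrate dehydrogenase subunit Idh3a by -0.05 (SE 0.190, adjusted p = 0.887). Fumarase Fh1 differed by -0.23 (SE 0.160, adjusted p = 0.306) and mitochondrial malate dehydrogenase Mdh2 by -0.19 (SE 0.153, adjusted p = 0.408).

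Other cell types moved in the same comparison. The cardiomyocyte markers had a median change of -0.37 with 0 of 20 called by edgeR and 5 at an unadjusted p under 0.05. All 6 neutrophil markers tested, 5 of 6 erythroid markers and 5 of 10 macrophage markers rose, and 6 of 8 fibroblast markers fell. Of the adipocyte, skeletal muscle and T cell markers tested, 1 of 6 rose in each set. The part of the cell types other than cardiomyocytes in the member values was not tested. A fit with the cardiomyocyte markers is given below.

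**Figure D2:**
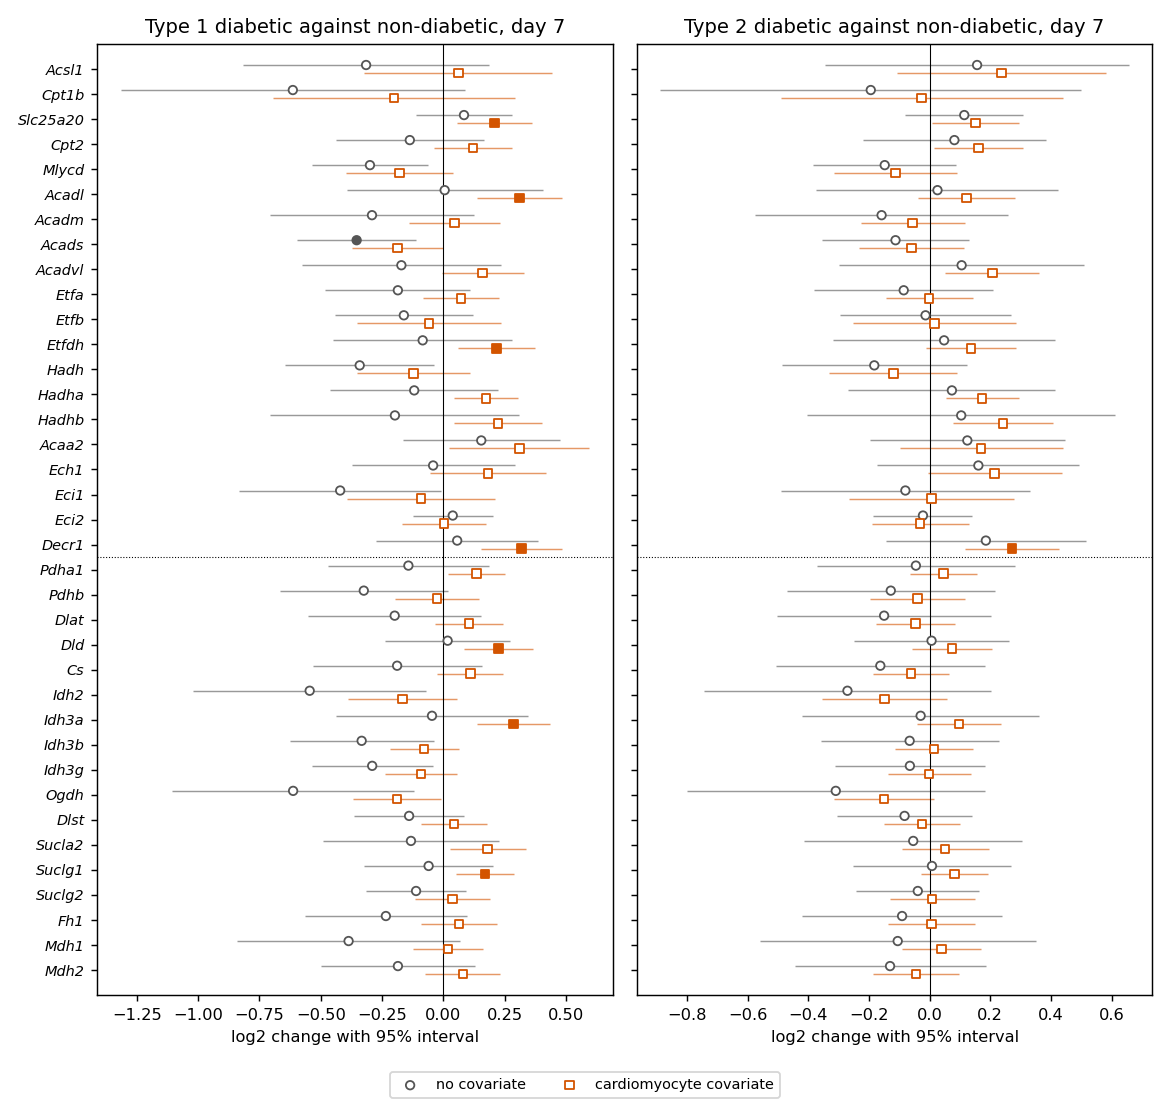
Log2 change (horizontal axis) of each of the 37 members at day 7, type 1 against non-diabetic and type 2 against non-diabetic, with 95% intervals. Grey circles come from the fit with groups only and orange squares from the fit with the cardiomyocyte mean as covariate; filled symbols have an adjusted p at or under 0.05, and a dotted line divides the 20 fatty acid members from the 17 of pyruvate dehydrogenase and the TCA cycle. Acads is the filled circle, at -0.35, and 7 squares are filled in the type 1 panel.

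With the cardiomyocyte mean as a covariate, 7 members were higher in type 1 libraries at day 7 and none lower, where 9.45% of genes were higher and 10.5% lower. They were Slc25a20 (0.21), Acadl (0.31), Etfdh (0.22), the dienoyl-CoA reductase Decr1 (0.32), the shared dihydrolipoamide dehydrogenase Dld (0.22), Idh3a (0.29) and the succinyl-CoA ligase subunit Suclg1 (0.17). Of these, Etfdh, Idh3a and Suclg1 had changes below 0 without the covariate, so their direction depends on it. Their adjusted p ran from 0.0077 for Decr1 to 0.0488 for Slc25a20. Without type 1 replicate 4 the count was 9, with 22.1% of genes called. With only the calcium-handling markers as covariate 3 were higher (Decr1, Dld and Idh3a) and Ogdh was lower (-0.32), with 22.8% of genes called. In the fit with the mean of all 20 markers, the median over the 37 members was 0.07, with 26 above 0. Without a covariate it was -0.19, with 31 below 0. Of the 20 markers themselves, 6 were higher and 4 lower in type 1 libraries in that covariate fit, and 2 higher and 1 lower in type 2.

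Type 2 diabetic against non-diabetic infarcts at day 7 gave no call among the 37 members, where 7.35% of all genes changed. None had an unadjusted p under 0.05 in edgeR, and DESeq2 and limma-voom called 0. The median change was -0.05 against -0.03 over all genes, 24 members were below 0, and the 95% intervals reached from -0.89 for Cpt1b to 0.66 for Acsl1. Acsl1 had medians of 129 and 174 CPM (0.16, SE 0.243, adjusted p = 0.760), and Ogdh of 751 and 676 CPM (-0.31, SE 0.238, adjusted p = 0.471). Acads, at a median of 59.1 CPM in type 2 libraries, differed by -0.11 (SE 0.117, adjusted p = 0.614). In the same comparison 5 of 6 T cell, 4 of 10 macrophage, 2 of 6 neutrophil and 1 of 7 endothelial markers rose. All 8 fibroblast markers were below 0, with 0 called. The part of these cell types in the member values was not tested.

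Of the other members of fatty acid oxidation, Cpt1b had a median of 1.60 CPM in type 2 libraries (-0.19, SE 0.337, adjusted p = 0.788) and Mlycd of 21.4 CPM (-0.15, SE 0.114, adjusted p = 0.472). Acadm had a median of 178 CPM (-0.16, SE 0.202, adjusted p = 0.695), Acadvl of 95.4 (0.11, SE 0.196, adjusted p = 0.804), Hadha of 317 (0.07, SE 0.166, adjusted p = 0.844) and Etfdh of 120 (0.05, SE 0.177, adjusted p = 0.908). On the TCA side, Pdha1 differed by -0.05 (SE 0.159, adjusted p = 0.903), Cs by -0.16 (SE 0.167, adjusted p = 0.609), Idh2 by -0.27 (SE 0.230, adjusted p = 0.521) and Idh3a by -0.03 (SE 0.190, adjusted p = 0.948). Fh1 differed by -0.09 (SE 0.160, adjusted p = 0.791) and Mdh2 by -0.13 (SE 0.153, adjusted p = 0.662). Every one of these overlapped between type 2 and non-diabetic libraries.

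With the cardiomyocyte covariate Decr1 was higher in type 2 libraries (0.27, SE 0.0754, adjusted p = 0.0233), where 4.84% of genes were higher. Its medians were 74.8 CPM in non-diabetic and 86.3 CPM in type 2 libraries and its change without the covariate was 0.19 (adjusted p = 0.529), and over all alternatives its adjusted p ran from 0.00249 to 0.711. Leaving out type 1 replicate 4 raised the count to 6, which added Acsl1, Cpt2, Acadvl, Hadha and Hadhb, with 10.7% of genes called.

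Between type 1 and type 2 diabetic infarcts at day 7 no member was called, where 2.71% of genes changed; edgeR gave 0 at an unadjusted p under 0.05, and DESeq2 and limma-voom called 0. The members lay below 0 in 34 of 37 cases, with a median of -0.14 against 0.00 over all genes. The lowest adjusted p was 0.257, for Acads (-0.24, SE 0.117). Both comparisons with non-diabetic libraries share those controls.

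The widest difference among the members was that of Acsl1, with medians of 116 CPM in type 1 and 174 in type 2 libraries (-0.47, SE 0.244, adjusted p = 0.290). Cpt1b differed by -0.42 (SE 0.338, adjusted p = 0.513), Mlycd by -0.15 (SE 0.114, adjusted p = 0.482), Acadm by -0.13 (SE 0.202, adjusted p = 0.758), Acadvl by -0.28 (SE 0.196, adjusted p = 0.450), Hadha by -0.19 (SE 0.166, adjusted p = 0.545) and Etfdh by -0.13 (SE 0.177, adjusted p = 0.721). In the TCA cycle, Ogdh differed by -0.30 (SE 0.238, adjusted p = 0.502), Idh2 by -0.27 (SE 0.230, adjusted p = 0.532), Idh3a by -0.02 (SE 0.189, adjusted p = 0.98) and Cs by -0.03 (SE 0.167, adjusted p = 0.954). Pdha1 differed by -0.10 (SE 0.159, adjusted p = 0.776), Fh1 by -0.14 (SE 0.160, adjusted p = 0.655) and Mdh2 by -0.05 (SE 0.153, adjusted p = 0.879). The diabetic groups overlapped in each of these genes.

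At day 28 no member passed the test in type 1 diabetic against non-diabetic infarcts, where 4.02% of 18901 genes did. Dlat and Sucla2 had an unadjusted p under 0.05. DESeq2 called 0, and limma-voom called Dlat (-0.37), Pdhb (-0.37) and Sucla2 (-0.39), all lower, with 16% of genes called. All 17 pyruvate dehydrogenase and TCA members were below 0, with a median of -0.19, while the 20 fatty acid members had 11 above and 9 below 0 and a median of 0.04. Of the 20 cardiomyocyte markers 18 were below 0 in the same fit, with a median of -0.23. The median over all genes was 0.00.

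Sucla2, a subunit of ATP-forming succinyl-CoA ligase, ran from 227 to 467 CPM with a median of 369 in non-diabetic libraries and from 211 to 348 with a median of 253 in type 1 libraries. The groups overlapped, with 9 of 10 type 1 libraries below the non-diabetic mean, and the change was -0.35 (SE 0.167, adjusted p = 0.235). Dlat, the acetyltransferase core of pyruvate dehydrogenase, ran from 168 to 323 CPM with a median of 279 and from 167 to 251 with a median of 188. All 10 type 1 libraries lay below the non-diabetic mean and the ranges overlapped (-0.33, SE 0.159, adjusted p = 0.252). Pdhb, which pairs with Pdha1 in the first subunit of that complex, had medians of 418 and 287 CPM (-0.31, SE 0.167, adjusted p = 0.314).

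Ech1, a dienoyl-CoA isomerase for unsaturated fatty acids, lay on the other side. It ran from 278 to 705 CPM with a median of 446 in non-diabetic libraries, from 354 to 894 with a median of 542 in type 1 and from 181 to 855 with a median of 579 in type 2 libraries. In each diabetic group 9 of 10 libraries lay above the non-diabetic mean, and all 3 groups overlapped. The change was 0.37 (SE 0.193, adjusted p = 0.289) in type 1 and 0.39 (SE 0.193, adjusted p = 0.204) in type 2 libraries.

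The members of fatty acid entry showed small differences in type 1 libraries at day 28. Cpt1b differed by 0.17 (SE 0.207, adjusted p = 0.694), Acsl1 by -0.18 (SE 0.191, adjusted p = 0.637) and Mlycd by 0.04 (SE 0.174, adjusted p = 0.931). In the spiral, Acadm had medians of 642 and 582 CPM (-0.01, SE 0.183, adjusted p = 0.979), Acadvl differed by 0.04 (SE 0.183, adjusted p = 0.935), Hadha by 0.09 (SE 0.180, adjusted p = 0.819) and Etfdh by -0.03 (SE 0.188, adjusted p = 0.948). Decr1 differed by 0.22 and the thiolase Acaa2 by 0.26, neither past the test.

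In the TCA cycle, Cs ran from 658 to 1290 CPM with a median of 1037 in non-diabetic and from 700 to 1100 with a median of 827 in type 1 libraries (-0.14, SE 0.155, adjusted p = 0.665). Pdha1 differed by -0.16 (SE 0.142, adjusted p = 0.558), Idh2 by -0.07 (SE 0.194, adjusted p = 0.883), Idh3a by -0.19 (SE 0.144, adjusted p = 0.505) and Ogdh by -0.14 (SE 0.159, adjusted p = 0.674). Fh1 differed by -0.20 (SE 0.150, adjusted p = 0.484) and Mdh2 by -0.11 (SE 0.152, adjusted p = 0.737). Each of these overlapped between the groups.

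Type 2 diabetic against non-diabetic infarcts at day 28 gave no call among the members in edgeR and none at an unadjusted p under 0.05, where 10.7% of genes changed. DESeq2 called 0 and limma-voom called Ech1 (0.44), with 11.8% of genes called. The same division by pathway was seen: all 17 pyruvate dehydrogenase and TCA members were below 0, with a median of -0.15, and 13 of the 20 fatty acid members were above 0, with a median of 0.04. Of the 20 cardiomyocyte markers 19 were below 0 in the same fit, with a median of -0.28. The type 1 and type 2 comparisons share the 11 non-diabetic libraries.

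Cs ran from 313 to 1240 CPM in type 2 libraries with a median of 885 (-0.14, SE 0.155, adjusted p = 0.611), the lowest library being replicate 4. Idh3a had a median of 322 CPM against 417 (-0.25, SE 0.144, adjusted p = 0.280), the lowest adjusted p of the TCA members. Pdha1 differed by -0.15 (SE 0.142, adjusted p = 0.534), Idh2 by -0.18 (SE 0.194, adjusted p = 0.604), Ogdh by -0.13 (SE 0.159, adjusted p = 0.662), Fh1 by -0.14 (SE 0.150, adjusted p = 0.610) and Mdh2 by -0.09 (SE 0.152, adjusted p = 0.764). These genes overlapped between the groups.

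On the fatty acid side, Cpt1b differed by -0.19 (SE 0.208, adjusted p = 0.618), Acsl1 by -0.02 (SE 0.191, adjusted p = 0.963) and Mlycd by -0.04 (SE 0.174, adjusted p = 0.916). Acadm differed by -0.02 (SE 0.183, adjusted p = 0.964), Acadvl by 0.07 (SE 0.183, adjusted p = 0.842), Hadha by 0.14 (SE 0.180, adjusted p = 0.674) and Etfdh by 0.01 (SE 0.188, adjusted p = 0.986).

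**Figure D3:**
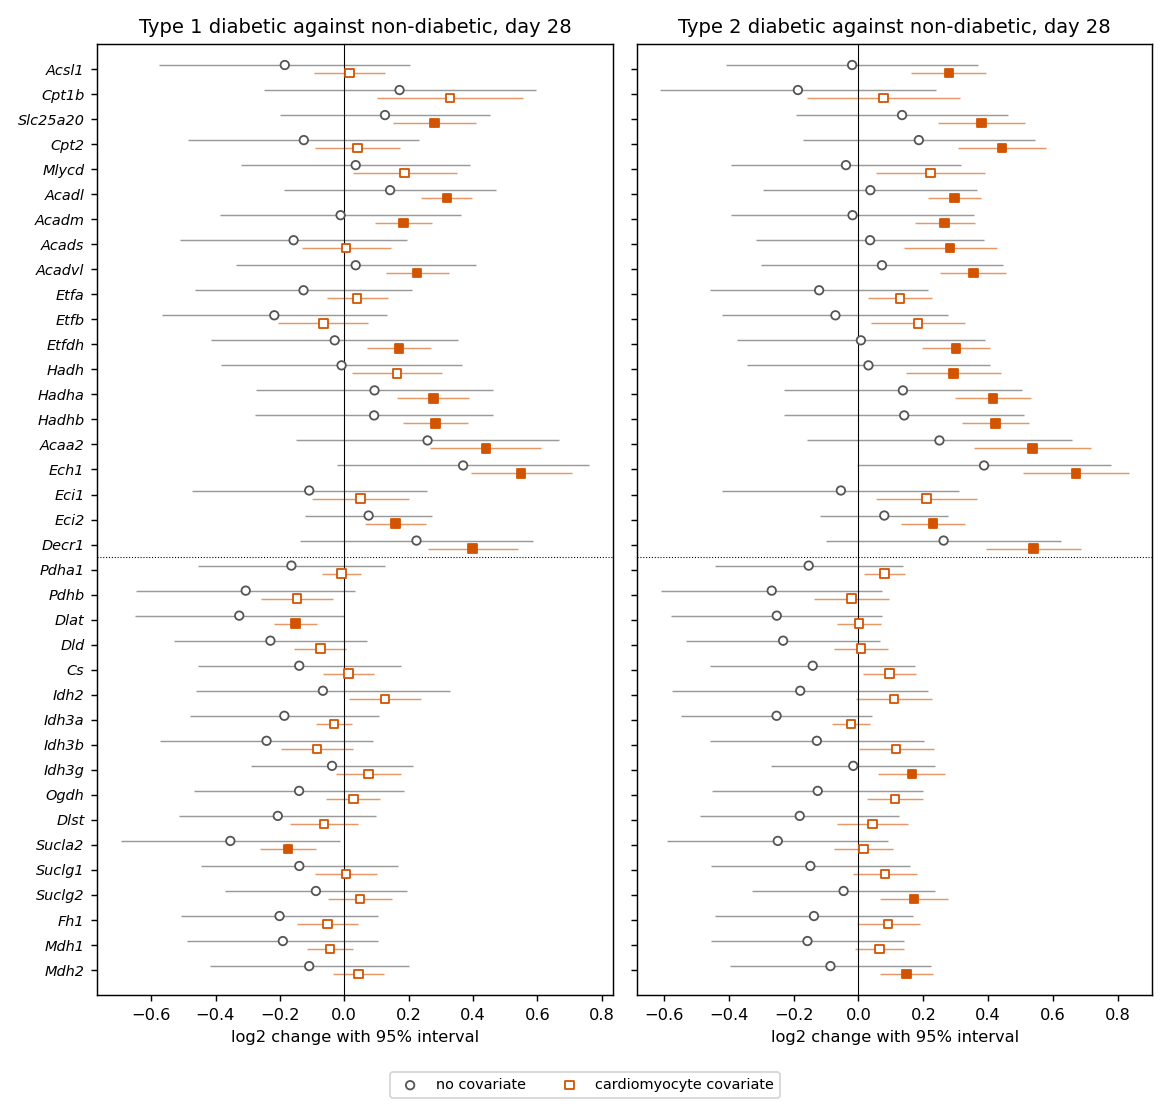
Log2 change (horizontal axis) of each of the 37 members at day 28, type 1 against non-diabetic and type 2 against non-diabetic, with 95% intervals. Grey circles are from the fit with groups only, orange squares from the fit with the cardiomyocyte mean as covariate; filled symbols have an adjusted p at or under 0.05, and a dotted line divides the 20 fatty acid members from the other 17. No circle is filled, while 13 squares are filled for type 1 and 18 for type 2, with Ech1 farthest right at 0.55 and 0.67.

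The balance between the pathways was taken within each library as the mean log2 CPM of the 20 fatty acid members minus that of the 17 pyruvate dehydrogenase and TCA members. At day 28 it ran from -1.41 to -1.22 in non-diabetic libraries (median -1.37), from -1.28 to -0.84 in type 1 (median -1.14) and from -1.26 to -1.04 in type 2 (median -1.10). Above the highest non-diabetic library lay 8 of 10 type 1 and 9 of 10 type 2 libraries, and the group means were 0.21 and 0.22 higher on the log2 scale. No p is given for this score, since the pathways were compared after their changes had been seen. The highest value was in type 1 replicate 2, which also had the highest skeletal muscle markers, at a mean log2 CPM of 8.16.

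Among only the libraries with skeletal muscle markers under 5 the balance ran from -1.41 to -1.29 in 8 non-diabetic libraries. It ran from -1.28 to -1.08 in 6 type 1 and from -1.26 to -1.04 in 9 type 2 libraries. Neither diabetic group overlapped the non-diabetic one. The gap was narrow in type 1, with a lowest library at -1.278 against a highest non-diabetic one at -1.29. This limit on skeletal markers was chosen after the data had been seen, so the separation is descriptive only. At day 7 the groups overlapped, with ranges of -1.51 to -1.22 in non-diabetic, -1.46 to -1.05 in type 1 and -1.45 to -1.26 in type 2 libraries. There 1 of 8 type 1 libraries (replicate 4) and 0 of 8 type 2 libraries lay above the highest non-diabetic one. That type 1 library also had the highest adipocyte and B cell markers of the day, with mean log2 CPM of 6.68 and 6.27 against group medians of -2.23 and 1.55, and their part in its balance was not tested.

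**Figure D4:**
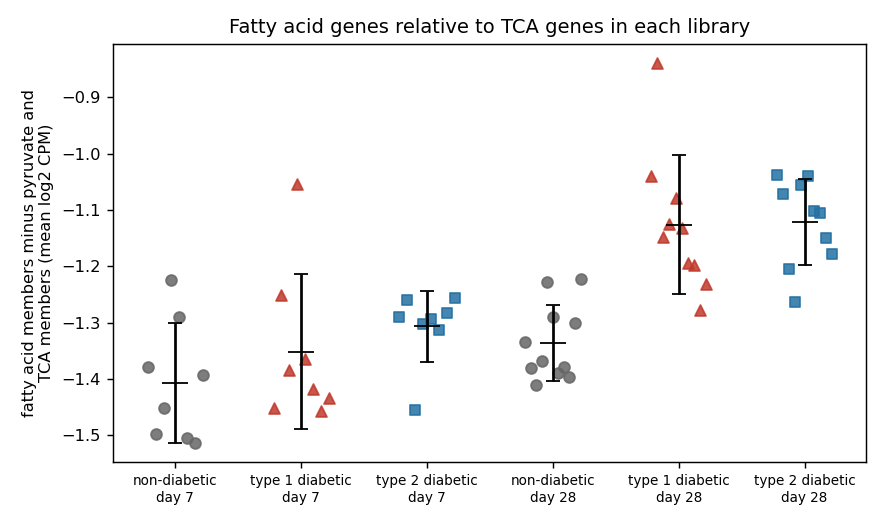
Mean log2 CPM of the 20 fatty acid members minus that of the 17 pyruvate dehydrogenase and TCA members (vertical axis), a point per library in the 6 groups, with mean ± SD. At day 28, 8 of 10 type 1 and 9 of 10 type 2 points lie above the highest non-diabetic point; at day 7 the groups overlap.

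With the cardiomyocyte mean as covariate the standard errors of the members were smaller at day 28, and members passed the test. The difference between the pathways was not tested itself. No covariate fit, at either day, was run with libraries summed by the first number of their name. Within a day each first number occurs in a single group, and the labels do not say what it stands for. In type 1 libraries 11 members were higher, all of fatty acid oxidation, and 2 lower, where 4.78% of genes were higher and 3.63% lower. The fatty acid members had a median of 0.19 and the others of -0.03. Without the covariate none of these passed, and Acadm and Etfdh were below 0, so their direction rests on the covariate.

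The 8 with the smallest p were spread over the steps of the pathway. In the dehydrogenation step, Acadl was higher by 0.32 (SE 0.0389, adjusted p = 4.13e-06) and Acadvl by 0.23 (SE 0.0480, adjusted p = 0.00311). In the later steps, Hadhb was higher by 0.28 (SE 0.0491, adjusted p = 0.000454), Hadha by 0.28 (SE 0.0550, adjusted p = 0.00169) and Acaa2 by 0.44 (SE 0.0844, adjusted p = 0.00123). Of the enzymes for unsaturated fatty acids, Ech1 was higher by 0.55 (SE 0.0772, adjusted p = 2.94e-05) and Decr1 by 0.40 (SE 0.0685, adjusted p = 0.000410). The carrier Slc25a20 was higher by 0.28 (SE 0.0633, adjusted p = 0.00529). Acadm (0.18), Etfdh (0.17) and Eci2 (0.16) were the other 3. The lower ones were Dlat by -0.15 (SE 0.0324, adjusted p = 0.00335) and Sucla2 by -0.18 (SE 0.0430, adjusted p = 0.00991).

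In type 2 libraries 18 members were higher with the covariate and none lower, where 6.5% of genes were higher. They comprised 15 fatty acid members together with Idh3g (0.16), Suclg2 (0.17) and Mdh2 (0.15). The fatty acid members had a median of 0.29 and the others of 0.08. Ech1 was higher by 0.67 (SE 0.0803, adjusted p = 1.29e-06), Hadhb by 0.42 (SE 0.0510, adjusted p = 1.4e-06), Decr1 by 0.54 (SE 0.0715, adjusted p = 5.77e-06) and Acadl by 0.30 (SE 0.0405, adjusted p = 9.11e-06). Hadha was higher by 0.41, Acadvl by 0.35, Cpt2 by 0.44 and Acaa2 by 0.54. All 11 members higher in type 1 libraries were among the 18, which is 61.1% of the type 2 list. The shared controls and covariate bear on that overlap. The same overlap over all genes is not given, so it is not read as particular to the members.

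These covariate results depend on which markers carry the fit. The 20 structural markers were themselves lower in diabetic libraries, by a median of -0.23 in type 1 and -0.28 in type 2. None was called by edgeR and 5 had an unadjusted p under 0.05 in each. With their own mean as covariate, 4 of the 20 were higher and 3 lower in type 1. In type 2, 2 were higher and 2 lower. A member call in that fit is therefore relative to the mean of markers that did not move together. With the sarcomere markers alone 8 members, all of fatty acid oxidation, were higher and Dlat, Pdhb and Sucla2 lower in type 1 libraries (10% of genes called). In type 2 libraries 18 were higher (10.5% called). With the calcium-handling markers alone 16 were higher in type 1, of which Idh2 and Mdh2 are TCA members (7.64% called), and 17 in type 2 (10% called). Among libraries low in skeletal muscle markers 8 were higher and 0 lower in type 1, all 8 of fatty acid oxidation (3.17% called), and 19 higher in type 2, 17 of them of fatty acid oxidation (8.65% called).

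Other cell types differed at day 28 as well. All 6 T cell markers and 4 of 10 macrophage markers rose in type 2 against non-diabetic libraries, and 1 of 8 fibroblast markers rose in type 1. The 8 skeletal muscle markers were above 0 in type 1 libraries with a median of 1.32 and none called. Their part in the member values was not tested.

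Between type 1 and type 2 diabetic infarcts at day 28 no member was called, where 3.21% of genes changed; edgeR gave 0 at an unadjusted p under 0.05, and DESeq2 and limma-voom called 0. The lowest adjusted p was 0.403, for Cpt2, with medians of 92.0 CPM in type 1 and 121 in type 2 libraries (-0.31, SE 0.180). With the cardiomyocyte covariate 7 members were lower in type 1 than in type 2 libraries, where 3.61% of genes were lower. They were Cpt2 (-0.40, SE 0.0659, adjusted p = 0.000237), Acsl1 (-0.26, SE 0.0556, adjusted p = 0.00363), Acads (-0.28), Etfb (-0.25), Dlat (-0.15), Idh3b (-0.20) and Sucla2 (-0.19). That count was 20 lower with sarcomere markers (7.81% of genes called). With calcium-handling markers Cpt2 was lower and Acadl and Idh3a were higher (6.92% called), so the count depends on the covariate. Without a covariate 3 of 6 T cell markers were lower in type 1 libraries, and 1 of 20 cardiomyocyte markers was higher. The 6 B cell markers had a median of -1.66 with none called, and all 10 macrophage markers were below 0 with none called. The part of the T cell, B cell and macrophage markers in the member values was not tested. With the cardiomyocyte covariate, 2 of the 20 cardiomyocyte markers were higher in type 1 libraries and 3 lower.

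Without a covariate, Acsl1 had medians of 433 CPM in type 1 and 528 in type 2 libraries (-0.17, SE 0.195, adjusted p = 0.761) and Cpt1b of 5.03 and 4.41 (0.36, SE 0.213, adjusted p = 0.420). Mlycd differed by 0.07 (SE 0.179, adjusted p = 0.902), Acadm by 0.01 (SE 0.187, adjusted p = 0.993), Acadvl by -0.04 (SE 0.187, adjusted p = 0.957), Hadha by -0.04 (SE 0.184, adjusted p = 0.949) and Etfdh by -0.04 (SE 0.192, adjusted p = 0.958). In the TCA cycle, Pdha1 differed by -0.01 (SE 0.145, adjusted p = 0.984), Cs by 0.00 (SE 0.158, adjusted p = 0.998), Idh2 by 0.11 (SE 0.198, adjusted p = 0.857) and Idh3a by 0.07 (SE 0.148, adjusted p = 0.892). Ogdh differed by -0.01 (SE 0.163, adjusted p = 0.980), Fh1 by -0.06 (SE 0.154, adjusted p = 0.902) and Mdh2 by -0.02 (SE 0.155, adjusted p = 0.968). The diabetic groups overlapped in all of these.

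The difference between days in the diabetic effect was tested itself, as an interaction over all 6 groups and 20421 genes. For type 1 no member was called, where 12.5% of genes were, and for type 2 none, where 1.51% were; edgeR gave 0 at an unadjusted p under 0.05 in both, and DESeq2 and limma-voom called 0. The median member difference, day 28 minus day 7, was 0.08 for type 1 and -0.03 for type 2. With the cardiomyocyte covariate the type 1 effect was lower at day 28 for Pdha1, Dlat, Dld, Idh3a, Sucla2 and Suclg1, all of pyruvate dehydrogenase and the TCA cycle, where 8.31% of genes were lower. That fit held a common marker slope for both days, while slopes fitted within each day had medians of 0.40 and 0.94. A day difference and a difference in slope therefore cannot be told apart in it. Its median was -0.29 for these 17 members and -0.12 for the fatty acid members. The covariate fits within a day gave type 1 medians of 0.06 at day 7 and -0.03 at day 28 for the 17. For the fatty acid members they gave 0.10 and 0.19. In the type 1 day difference without the covariate all 6 neutrophil markers tested, 5 of 6 erythroid, 2 of 10 macrophage and 1 of 8 adipocyte markers were lower. In the same difference 6 of 8 fibroblast markers were higher, and the part of these cell types in the member values was not tested. For type 2 no member was called with the covariate, where 3% of genes were.

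Of 65 other genes of the pathway (the remaining enzymes, the entry of fatty acids and pyruvate, and transcriptional regulators), 4 rose and 3 fell in type 1 and 3 rose and 5 fell in type 2 libraries at day 28, where 4.02% and 10.7% of all genes changed. No test compared them with the members. Cpt1a, the carnitine palmitoyltransferase of liver and many other cells, ran from 58.5 to 76.4 CPM with a median of 65.2 in non-diabetic libraries, from 80.1 to 133 with a median of 114 in type 1 and from 71.8 to 111 with a median of 94.2 in type 2. No type 1 library overlapped the non-diabetic range, and the type 2 libraries overlapped it. Cpt1a rose by 0.76 (SE 0.0800, adjusted p = 5.41e-07) in type 1 and by 0.49 (SE 0.0799, adjusted p = 0.000117) in type 2.

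Pdk4, the kinase that switches pyruvate dehydrogenase off, ran from 113 to 328 CPM with a median of 208 in non-diabetic libraries, from 429 to 1373 with a median of 864 in type 1 and from 254 to 1021 with a median of 592 in type 2. Type 1 libraries lay wholly above the non-diabetic ones, and type 2 libraries overlapped them. It rose by 1.90 (SE 0.216, adjusted p = 2.14e-06) in type 1 and by 1.48 (SE 0.213, adjusted p = 1.99e-05) in type 2. The substrate of that kinase, Pdha1, differed by -0.16 and -0.15 as given above.

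The mitochondrial carrier Ucp2 rose by 0.92 (SE 0.148, adjusted p = 0.000505) in type 1 and by 1.19 (SE 0.149, adjusted p = 2.43e-06) in type 2. Ucp3, a muscle uncoupling protein homologue, had medians of 10.1, 23.1 and 20.7 CPM and rose in type 1 by 1.20 (SE 0.279, adjusted p = 0.0114), with 0.65 (SE 0.278, adjusted p = 0.132) in type 2. The thioesterase Acot2 had medians of 27.9, 37.7 and 47.1 CPM and did not pass, at 0.61 (SE 0.210, adjusted p = 0.0931) and 0.48 (SE 0.210, adjusted p = 0.141). All 10 type 1 libraries were above the non-diabetic mean of Acot2.

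The succinate dehydrogenase subunit Sdha, which is outside the list, differed by -0.16 (SE 0.151, adjusted p = 0.607) in type 1 and by -0.13 (SE 0.151, adjusted p = 0.636) in type 2. The regulators Ppargc1a (0.34, adjusted p = 0.469, and 0.32, adjusted p = 0.447), Ppara (-0.44, adjusted p = 0.404, and -0.56, adjusted p = 0.210) and Esrra (-0.11, adjusted p = 0.662, and -0.13, adjusted p = 0.567) did not pass. With libraries summed by the first number of their name, Cpt1a (adjusted p = 0.0522 and 0.0524), Pdk4 in type 1 (0.0502), Ucp2 in type 1 (0.163) and Ucp3 in type 1 (0.334) no longer passed, while Pdk4 and Ucp2 in type 2 did. At both days summing left fewer units than libraries in every group. Where a call was lost with summed libraries, fewer units and a smaller difference therefore cannot be told apart. Over all alternatives the adjusted p of Cpt1a ran from 7.91e-17 to 0.0522 in type 1 and from 4.22e-07 to 0.0524 in type 2, and those of Pdk4 in type 1 from 3.69e-16 to 0.0502. For Ucp2 in type 1 it ran from 3.18e-07 to 0.163 and for Ucp3 in type 1 from 0.000159 to 0.334.

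**Figure D5:**
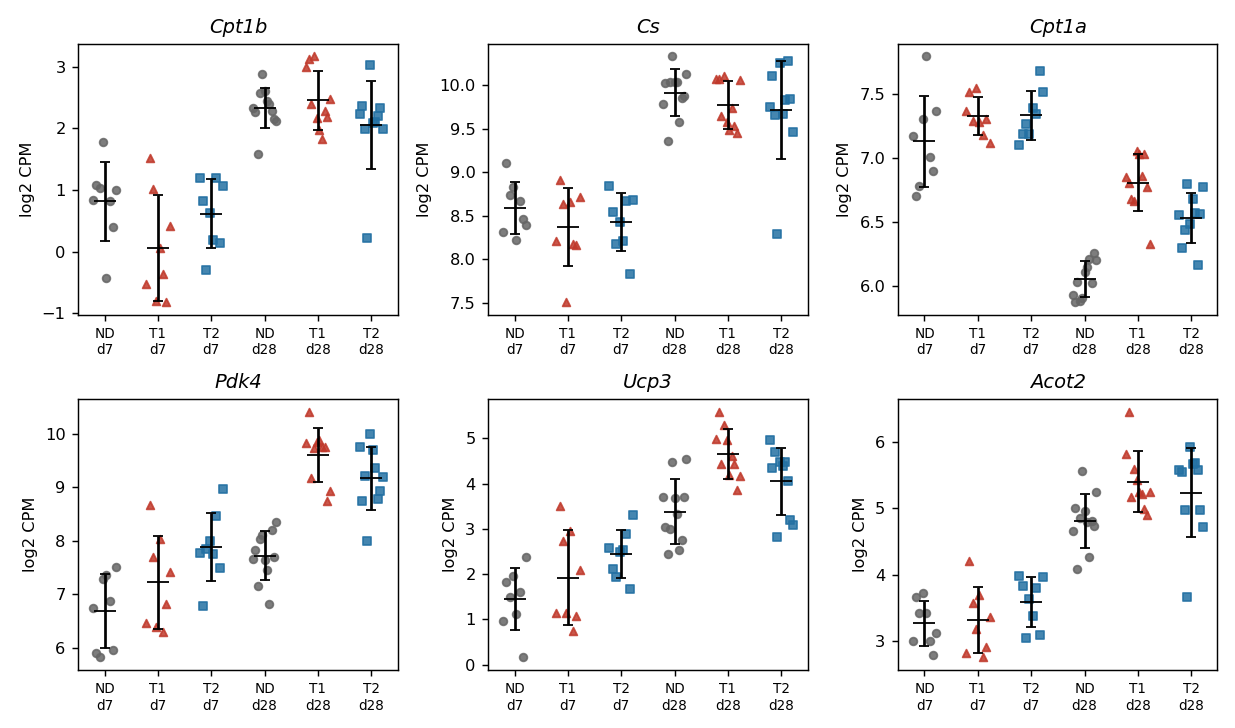
Log2 CPM (vertical axis) of Cpt1b, Cs, Cpt1a, Pdk4, Ucp3 and Acot2 in the libraries of the 6 groups, a point per library with mean ± SD. At day 28 all type 1 points of Cpt1a and Pdk4 lie above the non-diabetic points, while the members Cpt1b and Cs overlap.

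At day 7, 3 of the 65 rose and 8 fell in type 1 libraries, and 3 rose and 1 fell in type 2, where 22.5% and 7.35% of all genes changed, so neither share was above that of all genes. The mitochondrial malic enzyme Me2 rose in type 1 by 0.44 (SE 0.0888, adjusted p = 0.00132) and the acyl-CoA synthetase Acsl4 by 0.74 (SE 0.175, adjusted p = 0.00426). Dhtkd1, a subunit of 2-oxoadipate dehydrogenase, fell by 0.61 on the log2 scale (adjusted p = 0.00753) and the kinase Pdk2 by 0.87 (adjusted p = 0.0108). In type 2, Ucp2 rose by 0.61 (adjusted p = 0.0184) and Pdk4 by 1.19 (adjusted p = 0.0369), while Dhtkd1 fell by 0.52 (adjusted p = 0.0440) and Acsl5 rose by 0.28 (adjusted p = 0.0438). With libraries summed by the first number of their name the type 1 calls of Me2, Acsl4, Dhtkd1 and Pdk2 still passed, and the type 2 calls of Ucp2, Pdk4, Dhtkd1 and Acsl5 were lost. The type 2 calls of Dhtkd1 and Acsl5 were each lost in 11 leave-outs of a single library as well.

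Pdk4 at day 7 ran from 56.4 to 182 CPM with a median of 112 in non-diabetic and from 110 to 498 with a median of 225 in type 2 libraries. That call was lost when any of 8 libraries was left out (non-diabetic replicates 1, 2 and 3, and type 2 replicates 1, 3, 5, 6 and 8). Cpt1a, with medians of 137, 158 and 158 CPM, differed by 0.16 (adjusted p = 0.351) in type 1 and 0.18 (adjusted p = 0.414) in type 2. The type 1 effect was greater at day 28 than at day 7 for Cpt1a (0.59), Pdk4 (1.23), Ucp2 (0.68) and the retinoid receptor Rxra (0.37). It was lower for Acsl4 (-0.63), Me2 (-0.43) and cytosolic Idh1 (-0.46). All 7 of these day differences lost their call with libraries summed by the first number of their name. Ucp2, Rxra and Idh1 in these comparisons were named after their values had been seen.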

How the data were processed

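RNA had been extracted with a PureLink kit and made into stranded poly(A) libraries, per the labels' protocols. The authors deposited whole-number read counts per Ensembl gene, 1 table per day, on build mm39 per the submitters' processing notes, which name DESeq2. For the aligner, the counter and the strand setting, nothing is given in the sources used here. Of counts from 1 to 49, 76.4% at day 7 and 75.2% at day 28 were even. The reason was not tested and counts were used as deposited, so a count may exceed the number of separate RNA fragments. Symbols and exon lengths came from GENCODE M21 on GRCm38.

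Counts were filtered (filterByExpr, minimum count 10, total 15), scaled by TMM and tested with edgeR 4.0.16 quasi-likelihood in R 4.3.3, fitting the 3 groups of a day together. Benjamini-Hochberg adjustment covered all genes and calls are at 0.05; SE is the absolute log2 change divided by the root of F. Log2 CPM used a prior count of 2. Alternatives were DESeq2 1.42.0, limma 3.58.1 voom, RLE scaling, no filter, a replicate block, marker covariates, summed libraries, 2 groups only and single libraries left out. The edgeR fit of type 1 against non-diabetic libraries within a day was tested on simulated data, and the covariate and interaction fits were not. The members and lists were chosen with earlier results of these data known. All members are named; full statistics go to up to 8 called members per direction and to 14 fixed members, and outside the list to up to 4 called genes and 8 fixed genes. Some genes of the pathway are not reported here. No table column lacked a sample.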

Additional observations from a re-analysis of the deposited data

Results flagged for a closer look

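At day 28, type 2 diabetic replicate 4 stood far below the other 9 libraries of its group for 36 of the 37 members, all but Eci2, by Dixon's gap test. On the log2 CPM scale the genes of fatty acid entry were Acsl1 at 7.28, Cpt1b at 0.218, Slc25a20 at 5.41, Cpt2 at 5.3 and Mlycd at 4.4. The dehydrogenases and electron transfer genes were Acadl at 7.83, Acadm at 7.42, Acads at 5.39, Acadvl at 6.35, Etfa at 6.68, Etfb at 2.99 and Etfdh at 6.62. The later steps were Hadh at 6.61, Hadha at 8.01, Hadhb at 7.76 and Acaa2 at 6.61, and the auxiliary enzymes Ech1 at 7.5, Eci1 at 4.99 and Decr1 at 6.32. The pyruvate dehydrogenase genes were Pdha1 at 7.65, Pdhb at 6.78, Dlat at 6.15 and Dld at 6.66. The cycle up to succinyl-CoA was Cs at 8.29, Idh2 at 7.88, Idh3a at 6.93, Idh3b at 7.1, Idh3g at 7.09, Ogdh at 9.2 and Dlst at 7.39, and the rest Sucla2 at 6.64, Suclg1 at 6.21, Suclg2 at 5.62, Fh1 at 6.36, Mdh1 at 8.74 and Mdh2 at 8.09.

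In the same library the member mean was 6.54 and the mean of the 20 cardiomyocyte markers 8.72, both apart from the group as well, and its B cell markers averaged 7.49. The part of its cell makeup in the member values was not tested. At day 7, type 2 diabetic replicate 3 had a fatty acid minus TCA balance of -1.45, apart from the other 7, and non-diabetic replicate 4 had a total of 10.8 M counts. The test was applied to 210 groups of values, of which 40 had a value apart; chance gives about 1 in 20, and the members of 1 library are not independent.

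Among genes outside the list, the type 1 effect differed between days by the interaction test, day 28 minus day 7 on the log2 scale. The difference was 0.585 for Cpt1a, 1.23 for Pdk4, 0.682 for Ucp2 and 0.366 for Rxra. It was -0.634 for Acsl4, -0.428 for Me2 and -0.455 for Idh1. With libraries summed by the first number of their name all 7 calls were lost, and the adjusted p in edgeR then ran from 0.0822 for Me2 to 0.224 for Acsl4. The Acsl4 call was also lost without the low-count filter. No member passed that test in edgeR, and 0 had an unadjusted p under 0.05.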

How the results depend on the processing

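At day 7, type 1 against non-diabetic, the count of members called was 1. It was 2 with DESeq2, 4 with limma-voom, 0 with libraries summed by first number and 0 with only the 2 groups compared. It was 7 with the cardiomyocyte covariate, 8 with sarcomere markers, 4 with calcium-handling markers and 9 with the covariate without type 1 replicate 4, and ran from 0 to 7 with single libraries left out. For type 2 the count was 0, and 1, 4 and 6 with the cardiomyocyte, sarcomere and reduced covariate fits; type 1 against type 2 gave 1 with the last, Acsl1. At day 28 the counts were 0. For type 1 they were 3 with limma-voom, 13, 11 and 16 with the cardiomyocyte, sarcomere and calcium-handling covariates, 13 without type 2 replicate 4 and 8 with the covariate and low skeletal markers only. For type 2 they were 1, 18, 18, 17, 19 and 19 in that order. Between the diabetic groups they were 7, 20, 3, 7 and 7 for the 5 covariate fits. The type 1 day difference gave 6 with the covariate, in a fit with a common marker slope for both days. The count stayed at 1 with RLE scaling and without the low-count filter for type 1 at day 7, and at 0 in all alternatives not named here. The cause of these moves was not tested.

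Changes that turned from below 0 to above 0 and passed the test did so only in fits with a covariate, among the alternatives run; the cause was not tested. At day 7 in type 1 they were Etfdh (0.22 with cardiomyocyte markers, 0.22 with sarcomere markers, 0.21 without type 1 replicate 4), Idh3a (0.29, 0.28 and 0.28, and 0.20 with calcium-handling markers), Suclg1 (0.17, 0.17 and 0.17), Hadha (0.18 with sarcomere markers, 0.17 without replicate 4) and Hadhb (0.22 without it). At day 28 in type 1 they were Acadm (0.18 with cardiomyocyte markers, 0.33 with calcium-handling markers, 0.20 without type 2 replicate 4), Etfdh (0.17, 0.32 and 0.20) and, with calcium-handling markers, Hadh (0.29), Idh2 (0.27) and Mdh2 (0.16). At day 28 in type 2, with cardiomyocyte markers, they were Acadm (0.27), Acsl1 (0.28), Idh3g (0.16), Mdh2 (0.15) and Suclg2 (0.17). Without type 2 replicate 4 these were 0.27, 0.28, 0.16, 0.15 and 0.17, with Eci1 (0.21) and Sdha (0.11) besides. With sarcomere markers they were Acadm (0.26), Acsl1 (0.27), Idh3g (0.17), Mdh2 (0.15) and Suclg2 (0.17), and with calcium-handling markers Acadm (0.28), Acsl1 (0.29), Mdh2 (0.15) and Suclg2 (0.18). With the covariate and low skeletal markers only they were Acadm (0.31), Acsl1 (0.32), Eci1 (0.28), Mlycd (0.29), Ogdh (0.16) and Suclg2 (0.22). Between the diabetic groups at day 28 the turn of Cs went the other way, to below 0, at -0.13 with sarcomere markers. The covariate alternatives with sarcomere, calcium-handling or low skeletal markers, or without a replicate 4, were chosen after seeing the data.

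Same-numbered libraries correlated in their deviations from -0.366 to 0.371 at day 7 and from -0.424 to 0.338 at day 28, and 5 of 24 and 4 of 31 libraries correlated best with their own number, so the numbers were not taken to pair them. With a replicate block 2 members were called at day 7 in type 1 (Acads and Mlycd) and 0 in the other 5 comparisons. The lowest count of a member in any library was 21. Counts of Cpt1b and Etfb are limited by exons shared with other genes.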

Other observations

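Of the 15 transcriptional regulators listed, 4 fell in type 1 against non-diabetic infarcts at day 7 (Lpin1, Perm1, Ppard and Rxra), where 11.4% of all genes fell. All 4 calls were lost with libraries summed by the first number of their name. Perm1, a muscle regulator of oxidative genes, ran from 14.8 to 107 CPM with a median of 49.8 in non-diabetic and from 5.74 to 38.5 with a median of 17.9 in type 1 libraries. All 8 type 1 libraries lay below the non-diabetic mean and the ranges overlapped (-1.38, SE 0.465, edgeR adjusted p = 0.0342). The Perm1 call was lost without non-diabetic replicates 2, 3 or 4 or type 1 replicates 1, 4, 6 or 7 and with sarcomere markers as covariate. Ogdhl, a paralogue of Ogdh, fell by 1.12 on the log2 scale in the same comparison (SE 0.327, adjusted p = 0.0159), a call lost with summed libraries.

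At day 28, Tfam, the mitochondrial DNA transcription factor, stood at a median of 39.9 CPM in the controls, against 33.8 with type 1 and 33.0 with type 2 diabetes. It fell by 0.25 (SE 0.0650, adjusted p = 0.0231) and 0.24 (SE 0.0650, adjusted p = 0.0133) on the log2 scale, with 10 of 10 and 9 of 10 libraries below the non-diabetic mean. Ppargc1b, a coactivator, fell in type 2 libraries by 0.84 (SE 0.238, adjusted p = 0.0203). With summed libraries these 3 calls were lost, as they were among libraries low in skeletal muscle markers. The type 1 call of Tfam was also lost with a replicate block and without type 1 replicate 8, and its type 2 call with the covariate among libraries low in skeletal markers. These genes were named after their values had been seen.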
